A study of Bos taurus with 252 samples.

Results

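The genes described here build or control the membrane of the red blood cell. They are SLC4A1, EPB42 and RHAG, which encode proteins of the band 3 complex, ANK1, SPTB, DMTN and TMOD1, which encode parts of the skeleton under the membrane, and KLF1 and GATA1, which encode erythroid transcription factors. The members were taken from the count table by name and not by a threshold on their values, and this choice of names was made with earlier results of these data known. They are 9 of the 33282 genes listed there, and all 9 were among the 19056 genes that passed the filter on low counts.

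RNA was sequenced from whole blood of 42 feedlot steers, which formed 7 groups of 6 animals. Each steer was bled at 6 times, on day 0 and again 3, 7, 14, 21 and 56 days later, and each bleeding gave a library. The collection tubes (PAXgene) break open all blood cells at once and stabilise the RNA. The negative control group (NC) received no antimicrobial. The other groups received an antimicrobial once on day 0, after the blood of that day had been taken. It was a macrolide for TILD (tildipirosin) and TULA (tulathromycin), a cephalosporin for CEFT (ceftiofur), a fluoroquinolone for ENRO (enrofloxacin), a phenicol for FLOR (florfenicol) and a tetracycline for OXYT (oxytetracycline). All steers, those of NC included, had been given tildipirosin, a trenbolone acetate and estradiol implant, dewormers and vaccines at the start of backgrounding, before they came to the feedlot. Each group was kept in a pen of its own, so pen and treatment cannot be told apart. NC and ENRO were sequenced on lane 1, TULA on lane 2 and CEFT and OXYT on lane 3, while FLOR was divided between lanes 1 and 2 and TILD between lanes 2 and 3. For CEFT, OXYT, TULA and TILD, lane and treatment cannot be told apart in a comparison with NC.

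Band 3, the product of SLC4A1, exchanges chloride for bicarbonate and anchors the membrane to the spectrin skeleton through ankyrin. Mature mammalian red cells have neither a nucleus nor ribosomes, and the transcripts of such genes come mainly from young red cells that still hold RNA. In healthy adult cattle few of these reticulocytes circulate, because most red cells complete their maturation in the bone marrow.

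The libraries held 26.1 to 74.1 M counts, with a median of 43.6 M (1 M is 1000000). Globin genes took between 0.00405% and 25.5% of a library, with medians of 0.224% and 0.334% on days 0 and 56 and of 3.07% and 3.36% on days 14 and 21. Values are given below as counts per 1000000 counts of the library (CPM), scaled by TMM, a method that removes differences in composition between libraries. CPM is not divided by transcript length, so levels are compared between days, steers and groups and not between genes. The median count in a library was 2084 for KLF1, 424 for SPTB, 369 for GATA1, 258 for ANK1, 184 for EPB42, 125 for SLC4A1, 61 for DMTN, 23 for RHAG and 7 for TMOD1. TMOD1 was under 10 counts in 150 libraries, and its single values carry a large counting error. No read was counted for RHAG in 29 libraries, for TMOD1 in 28, for SLC4A1 in 11 and for DMTN in 4, where a count of 0 allows a level of up to 0.105, 0.104, 0.101 and 0.101 CPM at most. These limits rest on 3 counts and cover counting error only.

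The first question was how the genes changed over the days of the receiving period. Each steer was compared with itself in a model with steer as a block (edgeR's quasi-likelihood F test, Benjamini-Hochberg FDR of 0.05 over all genes). The level changed with day for 8 of the 9 genes, all but RHAG (FDR 0.1). In the same test 77% of all genes changed with day, so the number of members called does not set them apart. Their size and course are described gene by gene. In whole blood, a change in the number of young red cells and a change in RNA per cell cannot be told apart.

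**Figure D1:**
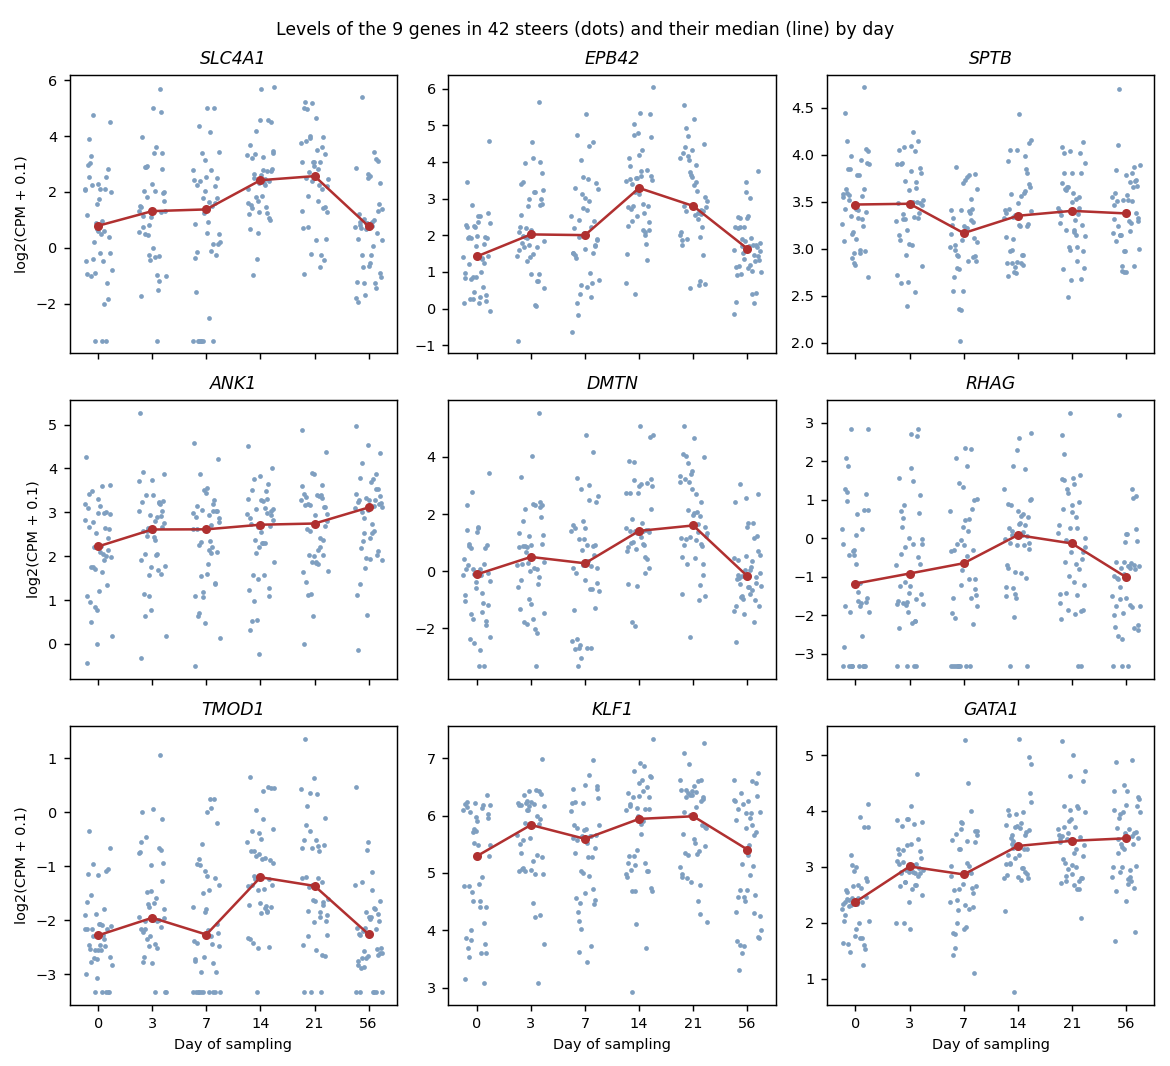
TMM-scaled levels of the 9 genes on a log2(CPM + 0.1) scale against the day of sampling, with a dot for each of the 42 steers and a line through the daily medians; the dots at the bottom edge of SLC4A1, DMTN, RHAG and TMOD1 are libraries with no count. The medians of SLC4A1, EPB42, DMTN and TMOD1 are highest on days 14 or 21 and near the day 0 level on day 56. Those of RHAG and KLF1 are also higher on days 14 and 21 than on days 0 and 56. ANK1 and GATA1 have their highest medians on day 56.

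SLC4A1 lay between 0 and 26.9 CPM on day 0 with a median of 1.63 over the 42 steers. On day 14 it lay between 0.41 and 53.7 CPM with a median of 5.25. Day 21 was similar (0.427 to 37.3, median 5.82), and by day 56 the median was back at 1.6 (0.163 to 41.7). The ranges of the days overlapped widely, but within steers the level was higher than on day 0 in 31 of 42 steers on day 14 and in 34 on day 21. The fitted log2 fold change against day 0 was 1.2 ± 0.4 (SE implied by the test, n = 42, edgeR FDR 0.00614) on day 14. On day 21 it was 1.25 ± 0.40 (FDR 0.00353). Days 3, 7 and 56 did not pass (0.34 ± 0.41, 0.08 ± 0.41 and -0.38 ± 0.43). From day 21 to day 56 SLC4A1 fell by 1.63 ± 0.42 on the log2 scale (FDR 0.00661) and was lower in 37 of 42 steers.

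EPB42 encodes protein 4.2, which binds band 3 and ankyrin. Its median was 2.58 CPM on day 0 (0.865 to 23.7), 3.97 on day 3 (0.448 to 49.8), 3.92 on day 7 (0.538 to 39.5), 9.71 on day 14 (1.23 to 65.6), 6.86 on day 21 (1.37 to 46.8) and 3.01 on day 56 (0.803 to 13.3). EPB42 was higher than on day 0 in 41 of 42 steers on day 14, and the exception was a steer of the TILD group. The log2 fold change was 0.78 ± 0.22 on day 3 (edgeR FDR 0.00206), 0.72 ± 0.22 on day 7 (FDR 0.00394), 1.72 ± 0.22 on day 14 (FDR 1.75e-12) and 1.52 ± 0.22 on day 21 (FDR 1.91e-10). On day 56 the level did not differ from day 0 beyond its error (0.08 ± 0.22), and it had fallen by 1.44 ± 0.22 from day 21 (FDR 2.48e-07) in 38 of 42 steers.

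RHAG encodes the Rh-associated glycoprotein, which carries the Rh proteins to the membrane and passes ammonia and carbon dioxide. Its median was 0.342 CPM on day 0 and 0.397 on day 56 but 0.957 and 0.811 on days 14 and 21, with single steers between 0 and 9.42. The log2 fold changes of 0.68 ± 0.40 on day 14 and 0.61 ± 0.39 on day 21 had the direction of SLC4A1 but did not pass (edgeR FDR 0.127 and 0.164). The change of -1.01 ± 0.42 from day 21 to day 56 did not pass either (FDR 0.145). With limma voom, another test with the steer as a block, RHAG did pass on day 14 (1.10), on day 21 (0.97) and from day 21 to day 56 (-1.42), where limma voom called 63.8%, 65.2% and 6.73% of all genes.

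The 4 genes of the skeleton did not follow a common course. DMTN encodes dematin, which bundles actin at the junctions of the skeleton, and TMOD1 encodes tropomodulin 1, which caps the short actin filaments there. DMTN had a median of 0.826 CPM on day 0 (0 to 10.8), 2.56 on day 14 (0.164 to 33.6), 2.94 on day 21 (0.105 to 33.5) and 0.788 on day 56 (0.0815 to 8.13). It rose by 1.88 ± 0.36 on day 14 (log2 fold change, edgeR FDR 1.33e-06) and 1.96 ± 0.36 on day 21 (FDR 3.34e-07), and it fell by 1.72 ± 0.36 from day 21 to day 56 (FDR 0.00048) in 36 of 42 steers. TMOD1 had the same highest days, with medians of 0.334 and 0.289 CPM on days 14 and 21 against 0.106 on day 0 and 0.109 on day 56. Its log2 fold changes were 1.48 ± 0.34 on day 14 (FDR 4.04e-05) and 1.29 ± 0.34 on day 21 (FDR 0.000346), and it fell by 1.35 ± 0.34 from day 21 to day 56 (FDR 0.00439). For both genes the changes on days 3, 7 and 56 from day 0 did not pass.

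SPTB encodes the beta chain of erythroid spectrin, the rod of the skeleton. Its daily medians stayed between 8.87 and 11 CPM, and single steers lay between 3.96 and 26.2. Its single call against day 0 was a decrease on day 7 (-0.37 ± 0.08, edgeR FDR 2.12e-05), when 32 of 42 steers were below their day 0 level. SPTB also fell by 0.30 ± 0.08 from day 3 to day 7 (FDR 0.0017), where it was the 1 member among 19.5% of all genes called, and rose by 0.23 ± 0.08 from day 7 to day 14 (FDR 0.00889). On day 14, when DMTN and TMOD1 were high, its change from day 0 was -0.14 ± 0.08.

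ANK1 encodes ankyrin-1, the link between band 3 and spectrin. Its median rose over the whole period, from 4.57 CPM on day 0 (0.644 to 19.1) to 6.0 and 6.02 on days 3 and 7, 6.48 and 6.61 on days 14 and 21 and 8.54 on day 56 (0.815 to 31.1). Within steers ANK1 was above day 0 in 32 of 42 on day 3 and in 25 on day 7, when its change did not pass. On day 56 ANK1 was above day 0 in 42 of 42 steers, by 0.02 to 2.57 on the log2 CPM scale. The fitted log2 fold change was 0.32 ± 0.08 on day 3 (edgeR FDR 0.0012), 0.29 ± 0.08 on day 14 (FDR 0.00146), 0.44 ± 0.08 on day 21 (FDR 1.31e-06) and 0.70 ± 0.08 on day 56 (FDR 1.25e-13). Unlike SLC4A1, EPB42, DMTN and TMOD1, it was higher on day 56 than on day 21 (0.26 ± 0.08, FDR 0.0435), a call that was lost without the filter on low counts (3.65% of all genes called).

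The erythroid regulators also differed from each other on day 56. GATA1 encodes the zinc finger factor required for red cells, megakaryocytes, eosinophils and mast cells. It had a median of 5.07 CPM on day 0 (2.28 to 17.3), 7.94 and 7.18 on days 3 and 7, 10.3 on day 14 (1.6 to 39.1), 10.9 on day 21 and 11.3 on day 56 (3.1 to 30.2). GATA1 was higher than on day 0 in 39 of 42 steers on day 14 and again in 39 on day 56. Its log2 fold change was 0.66 ± 0.13 on day 3 (edgeR FDR 5.06e-06), 0.46 ± 0.13 on day 7 (FDR 0.00124), 1.02 ± 0.13 on day 14 (FDR 3.47e-13), 1.03 ± 0.13 on day 21 (FDR 1.71e-13) and 1.03 ± 0.13 on day 56 (FDR 2.26e-13). The difference between days 56 and 21 was -0.0035 ± 0.12 (FDR 0.994).

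KLF1 encodes the erythroid Krüppel-like factor, which activates adult beta-globin and many membrane genes. Its median was 39.1 CPM on day 0 (8.38 to 81.6), 61.4 on day 14 (7.49 to 162), 63.4 on day 21 (17.5 to 153) and 42.4 on day 56 (9.79 to 107). It rose on day 3 (0.45 ± 0.18, edgeR FDR 0.0381), day 14 (0.61 ± 0.18, FDR 0.00225) and day 21 (0.70 ± 0.18, FDR 0.00035). The change of -0.49 ± 0.18 from day 21 to day 56 did not pass (FDR 0.0834).

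**Figure D2:**
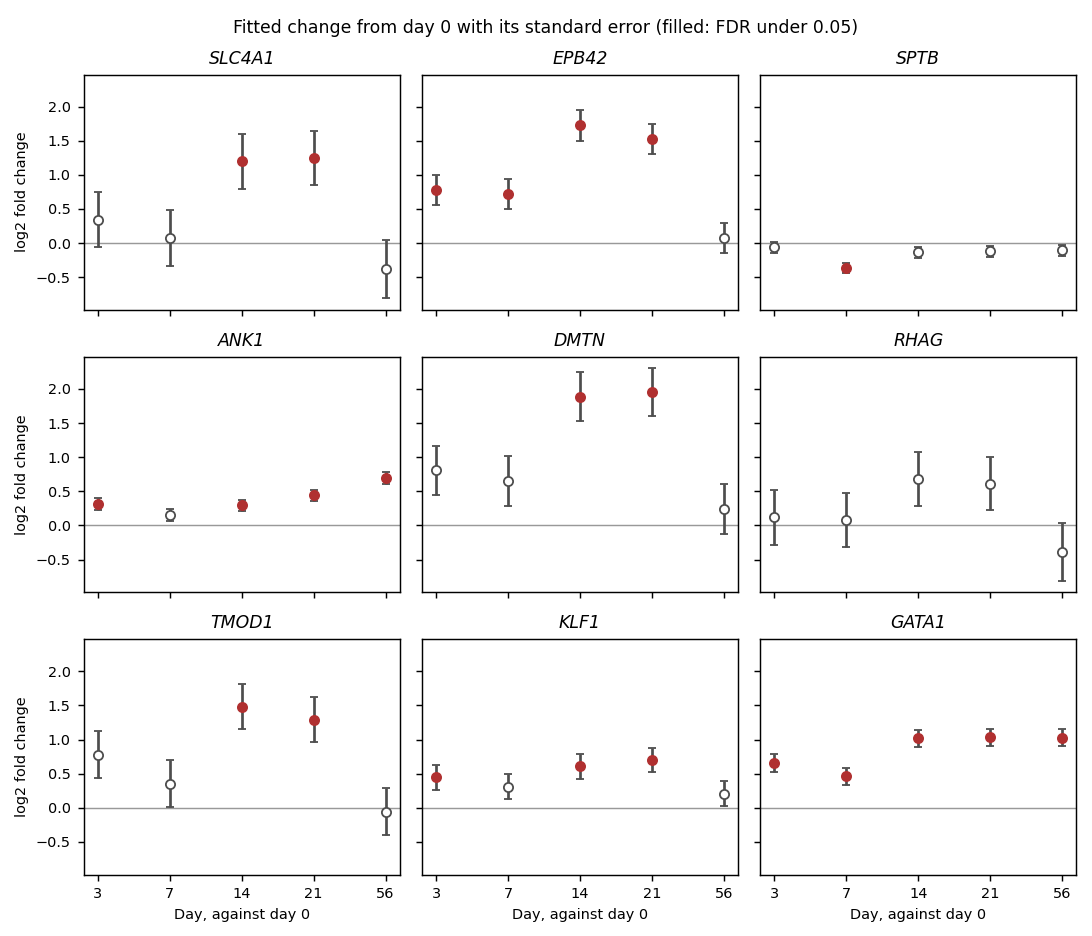
Fitted log2 fold change of each gene against day 0 on each later day over 42 steers. Bars are standard errors implied by the test. Filled points passed an FDR of 0.05 over all genes and open points did not. EPB42, DMTN, TMOD1 and SLC4A1 are near 0 on day 56 after their maximum on days 14 and 21, ANK1 is at 0.70 and GATA1 at 1.03 on day 56, and SPTB stays between -0.37 and -0.06.

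Counted by day, 4 members were higher than on day 0 on day 3 (EPB42, ANK1, KLF1 and GATA1), where 38.8% of all genes were called and 20.5% were higher. On day 7 EPB42 and GATA1 were higher and SPTB was lower, against 43.7% of all genes called. On days 14 and 21 the same 7 members were higher, all but SPTB and RHAG, against 32.8% and 32.7% of all genes called higher and 62.7% and 64.3% called in either direction. On day 56 ANK1 and GATA1 were higher, against 32.5% of all genes called higher and 63.3% called in all. The median log2 fold change of the 9 members was 1.02 and 1.03 on days 14 and 21 and 0.08 on day 56, while that of all genes tested was 0.03, 0.02 and 0.02. Between successive days, 6 members were higher on day 14 than on day 7 (SLC4A1, EPB42, SPTB, DMTN, TMOD1 and GATA1, against 24.7% of all genes higher and 47% called), and no member passed between days 14 and 21 in edgeR, where 12.1% of genes were called. From day 21 to day 56 just 6.27% of all genes were called, 2.82% lower and 3.45% higher, and 5 of the 9 members were among them, SLC4A1, EPB42, DMTN and TMOD1 lower and ANK1 higher. Without steers NC5 and Tild3, whose means stood apart in their groups for SLC4A1, EPB42 and DMTN, a fit chosen after the data were seen, 3 members each passed on days 3 and 7, 8 on day 14, 7 on day 21 and 2 on day 56. In this fit the shares of all genes called were 38.6% and 41.7% on days 3 and 7, 61.8% and 63.4% on days 14 and 21 and 63% on day 56. KLF1 on day 3 lost its call (0.41, FDR 0.07) and SPTB on day 14 gained one as a decrease (-0.21, FDR 0.015).

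The direction was also examined in the untreated steers alone, where no antimicrobial was given during the trial. In the 6 NC steers EPB42 (log2 fold change 2.09) and GATA1 (1.3) passed on day 14, and again on day 21 (1.68 and 1.3). On day 56 ANK1 (0.90) and GATA1 (1.25) passed. In the same fits 25.9%, 20.4% and 25.8% of all genes were called, so 2 of 9 members on each of these days was near the share over all genes. In this group DMTN, TMOD1 and SLC4A1 had log2 fold changes of 1.55, 1.57 and 1.29 on day 14 that did not pass at n = 6. SPTB was at 0.04 on day 7 in the NC steers, against -0.37 over all steers. All libraries of a steer were sequenced on 1 lane, and the day 14 fits within lanes gave 1.84, 1.82 and 1.46 for EPB42 and 1.08, 0.95 and 0.99 for GATA1 on lanes 1, 2 and 3, each past the threshold, as were 39.2%, 47.6% and 48.2% of all genes. SLC4A1 had 0.25, 1.91 and 1.59 on the same lanes, the first of which did not pass, and RHAG had -0.27, 0.98 and 1.59, of which the last passed. Differences between lanes were not tested.

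Steers differed far more in ANK1 than in most genes. Differences between steers took 86.2% of the variance of log2 ANK1 over all libraries, compared with a median of 38.6% over all genes tested, and 395 genes (2.07%) had a higher share. The mean of a steer over its 6 days ranged from 0.802 CPM in steer Ceft6 to 27.4 CPM in steer Ceft4, both of the same group. Ceft6 lay between 0.604 and 1.15 CPM on all days and Ceft4 between 19.1 and 38.4, so their values never overlapped. Within a steer, the highest and lowest day differed by a median of 0.96 on the log2 scale. For the other members the share between steers was 43.9% for SPTB, 38.1% for EPB42, 35.8% for GATA1, 28.6% for DMTN, 25.9% for RHAG, 25.4% for KLF1, 23.2% for SLC4A1 and 19.7% for TMOD1. The median range within a steer was 4.74 for SLC4A1 and 4.10 for DMTN on that scale. The day took 22.7% of the variance of GATA1 and 22.1% of EPB42 but only 4.03% of ANK1, compared with a median of 8.36% over all genes.

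**Figure D3:**
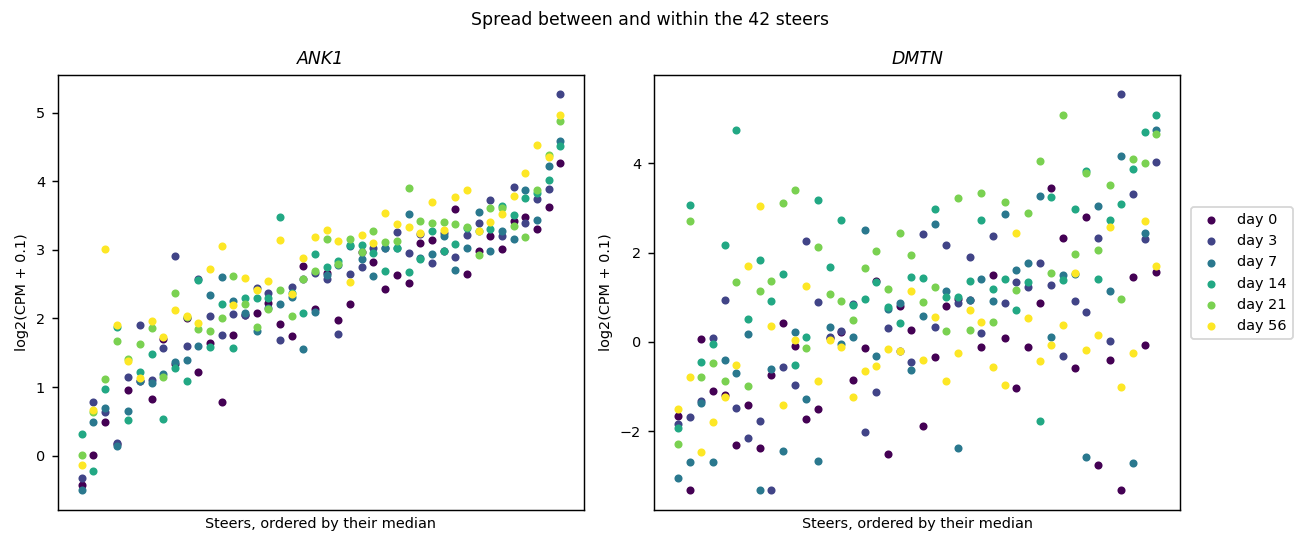
ANK1 and DMTN on a log2(CPM + 0.1) scale in the 42 steers, ordered along each axis by their median over 6 days, with days as colours. The 6 points of a steer lie close together for ANK1, whose steer means run from 0.802 to 27.4 CPM, and are spread over a median of 4.10 log2 units for DMTN.

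The row of KLF1 moved against that of its neighbour. In the order of genes of the RefSeq annotation of ARS-UCD2.0 the gene next to KLF1 is DNASE2, which encodes the lysosomal DNase II that degrades the DNA of expelled erythroid nuclei. Across all libraries log2 KLF1 and log2 DNASE2 had a Pearson correlation of -0.62, the lowest of KLF1 with any of the 19055 other genes tested, and after steer and day means were subtracted it was -0.77, again the lowest. The libraries come from 42 steers and share days, so this is a description. The coefficient of variation over libraries was 56.0% for KLF1 and 54.4% for DNASE2, but 23.5% for their sum. The summed row had a median of 87.1 CPM on day 0 and 98.3 on day 56, with 115 and 111 on days 14 and 21 between them. With the sum in place of KLF1, a choice made after the data were seen, the log2 fold change on day 14 was 0.35 and that from day 21 to day 56 was -0.17, and both passed the threshold in edgeR. The sum also passed on day 56 against day 0 (0.17). With neighbouring rows summed, 62.7% of all genes were called on day 14, 63.3% on day 56 and 6.29% from day 21 to day 56. How reads were divided between the 2 rows was not tested, and the KLF1 values above are to be read with this limit.

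**Figure D4:**
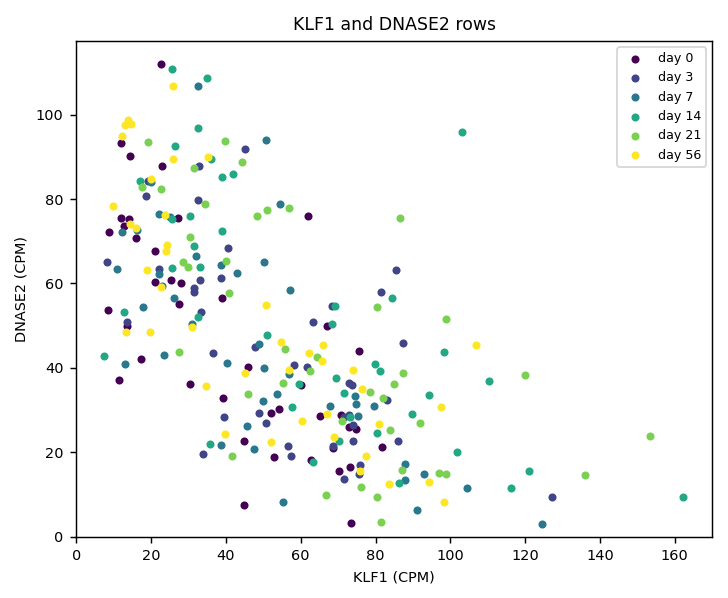
TMM-scaled CPM of KLF1 against that of DNASE2, the gene next to it, in all libraries, with days as colours. Libraries with high KLF1 mostly have low DNASE2, and the correlation of the log2 values is -0.62.

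The row of SPTB had its highest correlation, 0.58, with PLEKHG3, the gene next to it in that annotation. PLEKHG3 had a median of 78.1 CPM and SPTB of 10.3, and the coefficient of variation of their sum (21.2%) was close to that of PLEKHG3 (21.3%). With the rows summed, the decrease on day 7 was -0.40 and decreases on days 3 (-0.17), 14 (-0.20) and 21 (-0.17) passed as well, against 38.9%, 43.7%, 62.7% and 64.3% of all genes called on days 3, 7, 14 and 21 in that fit. TMOD1 and its neighbour TSTD2 had a correlation of -0.16, and EPB42 and CCNDBP1 of 0.08.

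The likeness of the members to other genes was measured by the correlation of their log2 levels. SLC4A1 was most like DMTN (Pearson r of log2 CPM 0.93 over the libraries of 42 steers on 6 days), HEMGN (0.92), a gene of erythroid precursors, and LOC616574 (0.90). DMTN was most like SLC4A1, LOC616574 (0.91) and SEMA6B (0.90). RHAG was most like SLC4A1 (0.89), LOC282685 (0.87) and HEMGN (0.85). Among the genes most like EPB42 were ALAS2 (0.89), the first enzyme of heme synthesis in red cells, and CA2 (0.87), the carbonic anhydrase of the red cell. TMOD1 was most like DMTN (0.78), AQP1 (0.77), the water channel of the red cell, and RAB3IL1 (0.77). These genes share the libraries, their depth and the globin content. The correlations with HBB and HBA1 were 0.88 and 0.89 for DMTN, 0.87 and 0.84 for EPB42 and 0.80 and 0.84 for SLC4A1. They were 0.76 and 0.75 for TMOD1 and 0.66 and 0.68 for RHAG.

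The highest correlations of the other 4 members were lower. GATA1 was most like LOC112445089 (0.74), FKBP8 (0.72) and FBXW4 (0.70). KLF1 was most like SLC25A39 (0.43), ATP5IF1 (0.43) and BLVRB (0.42), and SPTB, apart from PLEKHG3, was most like SEC22C (0.53) and CDR2 (0.52). ANK1 was most like LOC104973427 (0.45), LOC100848307 (0.44) and PRICKLE2 (0.43), and its correlation with EPB42 was 0.08. After steer and day means were subtracted the most similar genes to ANK1 were PYGM (0.56), ERMAP (0.54) and FLNC (0.52), and SLC4A1 and DMTN remained at 0.92. On that scale the correlation of ANK1 with KLF1 was 0.01, compared with 0.10 before the subtraction. ANK1 stood closer to all other members, with 0.40 for EPB42 and 0.47 for SLC4A1, the gene at rank 16 of its likeness. SPTB likewise had 0.51 with SLC4A1 (rank 3) and 0.48 with DMTN (rank 10), compared with 0.40 and 0.35 before the subtraction. GATA1 and EPB42 had 0.57, compared with 0.54 before.

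Other genes of the red cell were examined in lists. Beside the counts of the lists, 62.7% of all genes were called on day 14 and 63.3% on day 56 against day 0. From day 21 to day 56 it was 6.27%, with 2.82% lower. Of 9 tested genes of globins and AHSP, the chaperone of alpha-globin, 9 were higher on day 14 than on day 0 and 9 were lower on day 56 than on day 21, and none passed between days 56 and 0. HBB, the adult beta-globin, had a log2 fold change of 3.29 ± 0.42 on day 14 and 3.33 ± 0.42 on day 21 (edgeR FDR 1.23e-12 and 7.5e-13), HBQ1 of 3.79 ± 0.45 and 3.75 ± 0.45. HBA and HBA1 are near-identical copies, so their separate values are uncertain (3.38 ± 0.46 and 3.72 ± 0.49 on day 14). From day 21 to day 56 HBB fell by 2.57 ± 0.40 and HBQ1 fell by 3.40 ± 0.44. SLC4A1, EPB42, DMTN and TMOD1 thus had the days of highest level in common with the globins, at smaller fold changes. The medians of RHAG and KLF1 were also higher on days 14 and 21 than on days 0 and 56. Their falls from day 21 to day 56 did not pass in edgeR.

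Of 23 other red cell membrane genes, 15 were higher and 5 lower on day 14 (median 0.25), against 62.7% of all genes called. On day 56, 7 were higher and 5 lower (median 0.12), against 63.3%, so this count does not set them apart. From day 21 to day 56, when 6.27% of all genes were called, 1 of the 23 was higher and 8 were lower. The 4 of them with the smallest p in the test for day are also known from white cells, and they did not return to the day 0 level. GYPC, the gene of glycophorin C, was at 0.54 ± 0.05 on day 14 and 0.41 ± 0.05 on day 56, KCNN4, a potassium channel, at 0.49 ± 0.05 and 0.46 ± 0.05, ADD1, the gene of alpha-adducin, at 0.13 ± 0.03 and 0.28 ± 0.03, and TPM3, a tropomyosin, at 0.14 ± 0.02 and 0.14 ± 0.02 (log2 fold change against day 0, all past the threshold in edgeR).

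Of 17 other erythroid regulators, 6 were higher and 6 lower on day 14 (median -0.03). On day 56, 6 were higher and 7 lower (median -0.07). Of all genes 62.7% and 63.3% were called on these days, so the counts do not set the regulators apart. ZFPM1, which encodes FOG1, the cofactor of GATA1, was higher on day 14 (0.63 ± 0.05) and on day 56 (0.65 ± 0.05), as GATA1 was, and LDB1 was at 0.16 ± 0.02 and 0.23 ± 0.02. FOXO3 (-0.63 ± 0.04 on day 14) and KLF3 (-0.61 ± 0.05) were lower, and both remained lower on day 56 (-0.56 ± 0.04 and -0.60 ± 0.05). Of 12 genes of heme synthesis and iron uptake, 6 were higher and 3 lower on day 14. This does not set them apart from the 62.7% of all genes called. UROD, an enzyme of the pathway, was at 0.59 ± 0.06 on day 14 and fell by 0.36 ± 0.06 from day 21 to day 56, UROS was at 0.51 ± 0.04, CPOX at -0.42 ± 0.05 and ABCB10 at -0.29 ± 0.04 on day 14. Of 11 tested red cell enzymes, 7 were higher and 2 lower on day 14, against 62.7% of all genes called. CA2 had 1.41 ± 0.24, BLVRB 1.07 ± 0.13, PRDX2 0.69 ± 0.05 and BPGM, which makes 2,3-bisphosphoglycerate, 0.36 ± 0.05 on day 14. All 4 fell from day 21 to day 56 (by 1.63 ± 0.24, 0.89 ± 0.13, 0.31 ± 0.05 and 0.23 ± 0.05).

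Because GATA1 also acts in other blood cells, markers of those cells were set beside it. Of 5 tested eosinophil genes, 4 were higher and 1 lower on day 56 than on day 0, against 63.3% of all genes called. On day 56, 3 were higher than on day 21, against 3.45% of all genes called higher. The median of ALOX15 was 12.6 CPM on day 0, 28.3 on day 14 and 65.6 on day 56, with log2 fold changes of 0.95 ± 0.15 and 2.50 ± 0.16. IL5RA, the receptor of interleukin 5, had 0.41 ± 0.12 on day 14 and 1.67 ± 0.13 on day 56, and CCR3, the eotaxin receptor, 0.51 ± 0.09 and 0.96 ± 0.09. SIGLEC8 was lower (-0.31 ± 0.06 and -0.30 ± 0.06). The summed level of the eosinophil list ranged from 381 to 1304 CPM on day 0 and from 329 to 1184 on day 56. Of 12 tested platelet genes 4 were higher on day 14 and 2 on day 56, none lower. Of all genes 32.8% and 32.5% were called higher on these days, so the counts do not set the platelet genes apart. PF4 had 0.28 ± 0.11 on day 14 and 0.20 ± 0.11 on day 56, the second of which did not pass, and ITGA2B had -0.01 ± 0.03 and 0.14 ± 0.03, of which the second passed. ITGB3 (0.07 ± 0.10 and -0.07 ± 0.10) and PPBP (-0.03 ± 0.15 and -0.17 ± 0.15) did not pass on either day. The summed platelet level ranged from 401 to 2566 CPM on day 0 and from 442 to 2444 on day 56. Of 7 tested basophil and mast cell genes, 2 were higher and 1 was lower on day 56, against 63.3% of all genes called. CPA3 was at 0.59 ± 0.13, IL3RA at 1.01 ± 0.40, KIT at 0.05 ± 0.06 and GCSAML at -0.33 ± 0.15. The part of these cells in the level of GATA1 was not tested.

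White cell lists moved with the days as well, while 62.7% of all genes were called on day 14 and 63.3% on day 56. On day 14, 7 of 7 T cell genes and 5 of 6 B cell genes were higher and 6 of 7 neutrophil genes and 5 of 6 monocyte genes were lower, with medians of 0.40, 0.40, -0.51 and -0.82, and on day 56 the medians were 0.42, 0.44, -0.59 and -0.77. CD3E, CD3D, CD2 and CD5 of T cells were at 0.59 ± 0.04, 0.54 ± 0.03, 0.44 ± 0.03 and 0.40 ± 0.04 on day 14, and BLK, CD79A and CD79B of B cells at 0.91 ± 0.05, 0.45 ± 0.04 and 0.53 ± 0.05. S100A9, CXCR1, S100A8 and FCGR3A of neutrophils were at -0.51 ± 0.11, -0.57 ± 0.11, -0.74 ± 0.13 and -0.29 ± 0.10, and VCAN, CD163 and CD14 of monocytes at -1.55 ± 0.08, -1.59 ± 0.12 and -0.94 ± 0.09. The summed T cell level ranged from 1041 to 2153 CPM on day 0 and from 1455 to 3171 on day 14, and the summed neutrophil level from 1578 to 5346 and from 1114 to 4039. Of 10 cell cycle genes, 2 were higher and 4 lower on day 14 and 8 were lower on day 56, with TOP2A at -0.52 ± 0.09 and -0.67 ± 0.09, MKI67 at -0.52 ± 0.09 and -0.61 ± 0.09, CDK1 at -0.20 ± 0.08 and -0.52 ± 0.08 and RRM2 at -0.30 ± 0.09 and -0.59 ± 0.09. From day 21 to day 56, a step with 6.27% of all genes called, 0 of the 7 T cell genes and 0 of the 6 monocyte genes passed, while 1 of 6 B cell genes and 2 of 7 neutrophil genes were higher. Of the 10 cell cycle genes, 7 were lower and 0 higher on this step, with a median of -0.29. The median of the summed neutrophil level was 1563 CPM on day 21 and 1853 on day 56, both below the 2793 CPM of day 0. The part of the white cells in the levels of the members was not tested.

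The second question was whether the antimicrobials changed these genes. Within a day, the 6 steers of a treatment were set against the 6 of NC (edgeR's quasi-likelihood test, FDR of 0.1 over all genes). No member passed in any of the 324 comparisons of 9 genes, 6 treatments and 6 days. An unadjusted p under 0.05 was reached in 29 of them (8.95%), compared with 9.22% over all genes tested in the same comparisons. Of the 29, 27 were lower and 2 were higher in the treated steers, and 8 of them fell on day 0, before any treatment. They included EPB42 in 10, DMTN in 6, KLF1 in 4, SPTB in 3 and SLC4A1, RHAG and TMOD1 in 2 each, and none of ANK1 or GATA1. All these comparisons share the NC steers of a day. The share of all genes called was 8.34% for CEFT on day 3, 2.48% for ENRO and for TILD on day 3, 2.1% for FLOR and 2.07% for OXYT on day 3, and 0.315% for CEFT on day 14. For TILD it was 0.0157% on day 0, 0.11% on day 7 and 0.115% on day 56, for ENRO 0.0157% on day 7 and 0.00525% on each of days 0, 14, 21 and 56, for CEFT 0.00525% on day 0 and for OXYT 0.0105% on day 56. Apart from TILD on days 14 and 21, given below, it was 0 in the others.

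The smallest p belonged to EPB42 in TILD. On day 14 the NC steers had 8.61, 11.7, 12.2, 18.1, 27.6 and 40.4 CPM and the TILD steers 2.41, 3.28, 4.14, 4.35, 6.9 and 13.7 CPM. A single TILD steer, Tild3, exceeded the lowest NC steer. On day 21 the NC steers had 5.75, 6.82, 10.2, 11.9, 20 and 36.2 CPM and the TILD steers 1.59, 3.76, 4.61, 5.88, 6.23 and 6.4 CPM, and the groups overlapped between 5.75 and 6.4. The log2 fold change was -1.77 ± 0.48 on day 14 (FDR 0.185, against 0.194% of all genes called) and -1.67 ± 0.46 on day 21 (FDR 0.141, against 0.0787%). On day 0 EPB42 had already been at 1.72 to 5.64 CPM in NC and 1.06 to 3.74 in TILD (-0.89 ± 0.37, FDR 0.736). The 2 later differences passed in edgeR's likelihood ratio test (FDR 0.0346 and 0.0401) and in DESeq2 (0.0104 and 0.0123), and after adjustment of the counts for lane by ComBat_seq they were -1.31 and -1.16 (FDR 0.777 and 0.533). Without steer NC1 the difference on day 21 passed in the quasi-likelihood test (-1.73, FDR 0.0497), in a fit that called 17.4% of all genes. Over all fits that left out a steer, it lay between -1.84 and -1.20 on day 21 and between -2.23 and -1.44 on day 14.

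**Figure D5:**
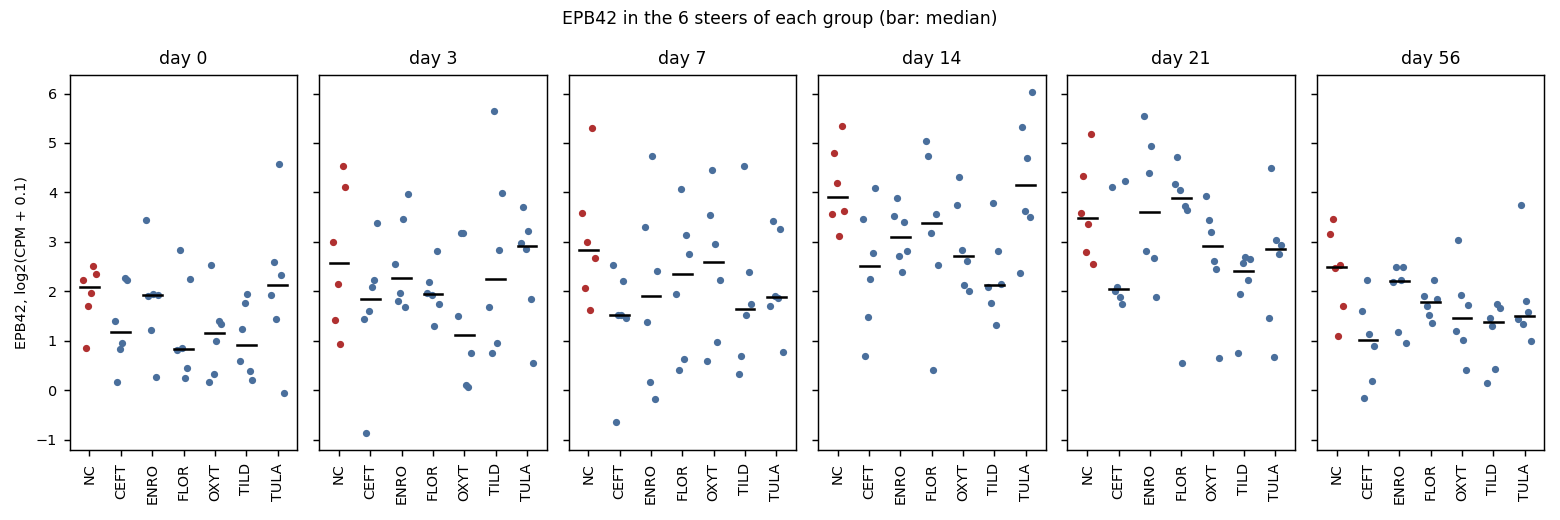
EPB42 on a log2(CPM + 0.1) scale in the 6 steers of each group on each day, with the group median as a bar and NC in red. Values of NC and the treated groups overlap on every day, and on day 14 just 1 of the 6 TILD steers lies above the lowest NC steer.

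DMTN was lower in TILD than in NC on day 21 by a log2 fold change of -1.91 ± 0.69 (edgeR FDR 0.178) and on day 14 by -1.71 ± 0.79 (FDR 0.379), and in FLOR on day 56 by -1.98 ± 0.57 (FDR 0.836). DESeq2 called 7 of the 324 comparisons, namely EPB42 in TILD on days 14, 21 and 56 and in CEFT on day 7 and DMTN in TILD on day 21 and in FLOR on days 3 and 56, and it gave no adjusted p in 23. Of the comparisons with an adjusted p, DESeq2 called 2.33% for the members and 3.37% for all genes. The likelihood ratio test called 0.617% for the members and 0.91% for all genes. In the comparisons where DESeq2 or the likelihood ratio test called a member, the treated group was the lower. RHAG was lower in CEFT than in NC on day 3 in a fit without steer Ceft8 (-3.15, FDR 0.0945), which called 17.9% of all genes. With all steers the difference was -1.55 ± 1.14 (FDR 0.434).

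The third question was whether the change from day 0 within steers differed between a treatment and NC, a comparison that takes out the differences present on day 0. None of the 54 tests of 9 genes and 6 treatments passed (edgeR's quasi-likelihood F test over 5 days, FDR 0.05). An unadjusted p under 0.05 was reached by 2 (3.7%), compared with 16% over all genes. Both concerned SPTB, in ENRO (FDR 0.185, against 7.25% of all genes called) and in FLOR (FDR 0.379, against 0.404%). In ENRO the change of SPTB from day 0 was lower than in NC by -0.59 ± 0.28 on day 3, -0.68 ± 0.28 on day 7 and -0.72 ± 0.28 on day 14. On days 21 and 56 it differed by -0.27 ± 0.28 and -0.06 ± 0.28. SPTB had been higher in ENRO than in NC on day 0 (0.54 ± 0.19). For EPB42 in TILD the change from day 0 differed from that of NC by -0.94 ± 0.79 on day 14 and -0.65 ± 0.78 on day 21. Among the other treatments 2.55% of all genes were called for CEFT, 2.51% for OXYT, 0.152% for TILD and 0% for TULA.

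Averaged over the 6 days, none of the 54 differences between a treatment and NC passed (limma voom, steers as random blocks, FDR 0.05), and 3 had an unadjusted p under 0.05 (5.56%, compared with 13.5% over all genes). EPB42 was at -1.14 ± 0.51 in CEFT (FDR 0.188, against 3.42% of all genes called), at -1.14 ± 0.53 in TILD (FDR 0.192, against 4.98%), and DMTN at -1.74 ± 0.87 in OXYT (FDR 0.489, against 0.666%). In ENRO, FLOR and TULA 0.43%, 1.56% and 0.651% of all genes were called. Day 0, before any treatment, is part of these averages. Over days 3 to 56 alone none of the 54 passed either, against 2.13% of all genes called. In that fit EPB42 was at -1.25 in CEFT (limma voom FDR 0.159) and at -1.15 in TILD (FDR 0.196). The mean of EPB42 in a steer over its 6 days lay between 4.91 and 25.1 CPM in NC with a median of 8.88, between 1.38 and 9.19 in CEFT with a median of 3.66, and between 2.07 and 16.3 in TILD with a median of 3.88. In each of these pairs the ranges overlapped. For ANK1 the medians of the steer means ran from 4.51 CPM in NC to 8.5 in TILD, while single steers within NC ran from 1.25 to 14.2, so the differences between groups lay within the spread of the steers.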

How the data were processed

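Whole blood RNA of 42 steers was measured on 6 days by stranded mRNA sequencing. According to the study's methods and the submitters' processing notes, the authors checked reads with FastQC 0.11.9, trimmed them with Trimmomatic 0.39, aligned them with HISAT2 to ARS-UCD1.3 and assembled and quantified transcripts with StringTie 2.2.0. The HISAT2 version is 2.1.1 in the processing notes and another one in the methods. The counts deposited by the authors are whole numbers derived from transcript coverage, summed by gene, without normalization or lane adjustment. Coverage of overlapping or neighbouring genes can be assigned to either row by this step, and the split is not recorded in the counts.

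Groups, steers, days and lanes came from the sample labels and column names. The filter on low counts asked for 12 or more libraries with over 0.2 CPM. CPM values were scaled by TMM over all libraries, and log2 CPM used a prior count of 2. Analyses used R 4.3.3, edgeR 4.0.16, limma 3.58.1, DESeq2 1.42.0, sva 3.50.0, Python 3.11.15 and pandas 2.3.3. Days were compared by edgeR's quasi-likelihood test with steer as a fixed block, with the trend of the dispersion estimated on every 5th gene to save time. Treatments were compared with NC within a day by the same test without a block, and over 6 days by limma voom with the steer as a random block (consensus correlation 0.359). An FDR of 0.1 was used within days, as in the study's methods, and of 0.05 elsewhere, over all genes tested. Each SE was computed from the fold change and its F or t value. It restates the test and is not a separate measure of the spread between steers. The study's edgeR step, a likelihood ratio test after ComBat_seq by lane, was run as an alternative, because groups that lie on different lanes can lose their differences in that adjustment. Here ComBat_seq was applied to the filtered counts. The study also required a call in a mixed model (glmmSeq), which was not run. The limma voom fit over 6 days stands in for its group term. The within-day test of a treatment against NC was run on simulated counts with the same dispersion for every gene and no steers that stood apart. In the data the standard deviation of log2 CPM was 2.17 for SLC4A1, 1.97 for DMTN and 1.90 for RHAG. Its median over all genes was 0.497. The simulation therefore cannot tell how the test performs for such members.

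The 6 libraries of a steer were paired by the steer's name in the labels. Deviations from the mean of the group on the same day were compared within steers. Their median correlation was 0.342, and each of 42 of 42 steers had a mean over 0.1. Correlations between libraries of different steers were not computed, so these values describe the pairing and do not test it. Steers of different groups are different animals, and equal numbers do not pair them.

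The members and the lists of other genes were chosen with earlier results of these data known. Of each list the 4 tested genes with the smallest p in the test for day are named, and of each member the 3 genes with the highest correlation, except 3 genes that are not reported here. The lists were other red cell membrane genes, other erythroid regulators, globins with AHSP, heme synthesis and iron uptake, red cell enzymes, platelets, eosinophils, basophils and mast cells, T cells, B cells, neutrophils, monocytes and the cell cycle. Neighbouring genes were read from the RefSeq table of ARS-UCD2.0 by order alone. A planned search for promoter motifs was not run, since no sequence of the build was at hand.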

Additional observations from a re-analysis of the deposited data

Results flagged for a closer look

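In 15 of 63 sets of 6 steers (9 genes in 7 groups), 1 steer's mean over 6 days stood apart from the other 5 by Dixon's criterion. Its cut-off is meant for normally distributed values, whereas these means are on the CPM scale. The sets also share steers between correlated genes, so their number was not set against chance. In NC the steer that stood apart was NC5, with means of 24.8 CPM for SLC4A1 (next highest steer 8.35), 25.1 for EPB42 (11.1), 18 for DMTN (4.55) and 3.63 for RHAG (1.60). In TILD it was steer Tild3, with 18.7 CPM for SLC4A1 (7.04), 16.3 for EPB42 (5.63), 12.5 for DMTN (1.96) and 0.777 for TMOD1 (0.317). In OXYT steer Oxyt4 had 7.18 CPM for SLC4A1 (3.80) and 1.58 for RHAG (0.87). In ENRO steer Enro10 had 0.705 CPM for TMOD1 (0.319) and 15.7 for GATA1 (10.7). In TULA steer Tula4 had 0.585 CPM for TMOD1 (0.292) and 101 for KLF1 (62.4). In CEFT steer Ceft4 had 27.4 CPM for ANK1 (10.4). In each of these sets the steer that stood apart was the highest. No cause was tested. In none of the 270 sets of gene, treatment and later day did all 6 treated steers move from day 0 in the direction opposite to all 6 NC steers.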

How the results depend on the processing

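Under RLE scaling, without globins, without the filter on low counts, with limma voom, with neighbouring rows summed and without steers NC5 and Tild3 (the last 2 chosen after the data were seen), the counts of members past the threshold for day stayed within 1.5 times of those reported. The median of all genes moved by at most 0.03 on the log2 scale against day 0 under each scaling. For fits on fewer steers, the counts that moved are given with the share of all genes called in parentheses. In the 6 NC steers alone the counts were 2 for any change with day, 0 on days 3 and 7 and 2 on days 14 and 21, with 0 for each of the steps 3 to 7, 7 to 14 and 21 to 56 (all genes 27.7%, 0.0262%, 2.19%, 25.9%, 20.4%, 0.409%, 0.00525% and 0.00525% called), and SPTB on day 7 turned to 0.039. On lane 1 alone days 3, 7 and 14 had 0, 1 and 3, and the same steps had 0, 2 and 2 (all genes 5.31%, 14.1%, 39.2%, 4.12%, 32.3% and 1.44%). On lane 2 alone days 3, 7 and 21 had 0, 1 and 3, and the steps had 0, 3 and 0 (22%, 32.6%, 51.5%, 1.05%, 28% and 0%). On lane 3 alone 4 members had any change with day, days 3 and 7 had 1 and 0, and the steps had 0, 0 and 0 (60.8%, 22%, 26.8%, 7.65%, 18.5% and 0.084%). Counts of 0 where almost no gene was called say nothing about the members.

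Within days, 0 of 324 comparisons with NC passed in edgeR's quasi-likelihood test, 2 in its likelihood ratio test and 7 in DESeq2 (0.51%, 0.91% and 3.37% of all genes), and 0 under RLE scaling, without globins, without the filter, with a lane term, after ComBat_seq (by either edgeR test) and with the bias-adjusted fit, which was chosen after the data were seen. An unadjusted p under 0.05 was reached in 29, 42 and 44 comparisons by the first 3 and in 14 after ComBat_seq, or 8.95%, 13%, 13.9% and 4.32%, compared with 9.22%, 8%, 10.4% and 6.1% over all genes. The fit with a lane term called 0.0621% of all genes, and the ComBat_seq fits called 0.0809% (quasi-likelihood) and 0.197% (likelihood ratio). The lane term separates lane from treatment only through the steers of FLOR and TILD, which were divided between lanes. With 1 steer left out, the counts per comparison ranged from 0 to 1 for CEFT on day 3 and TILD on day 21 and were 0 in the other 6 comparisons examined. The 0 of 54 differences in the change from day 0 also stood in limma voom and without the replicate block, with 2 and 0 at an unadjusted p under 0.05 (15.3% and 5.74% of all genes). Without the replicate block, which treats the 6 libraries of a steer as 6 animals, 16 of the 54 differences over 6 days (29.6%) passed, in place of 0, compared with 20.9% over all genes. For the change with day the fit without the block lost ANK1 (FDR 0.109). After ComBat_seq 0 of 54 passed over 6 days, with 0 at an unadjusted p under 0.05. Depth limits TMOD1 and RHAG most, as a median library held 7 and 23 counts of them.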
